A study of Mus musculus with 10 samples.

Results

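The genes described here were 9 genes of the complement system that can be transcribed by macrophages: the C1q chains C1qa, C1qb and C1qc, the components C3 and C4b, complement factor B (Cfb), properdin (Cfp), and the anaphylatoxin receptors C3ar1 and C5ar1. They were taken by name, without regard to a threshold, from the 24538 genes of the count files, and all 9 were among the 11571 genes tested. RNA of 10 macrophage samples from mouse lung was sequenced to ask how metastasis-associated macrophages (MAMs) differ from resident alveolar macrophages (RAMs). The 5 MAM samples came from metastases under 1 mm in diameter, dissected from lungs of female C57BL6/J mice that had received E0771-LG cells, a mouse mammary carcinoma line, through the tail vein, and each sample pooled the metastases of 2 to 4 mice. They were sorted as CD45+, F4/80+, LY6C-, MRC1+, FSC high cells that were CD11B+ and CD11C-. The 5 RAM samples were sorted from normal lung with the same markers, but as CD11C+ and CD11B- cells. All mice were wild type and 8 to 10 weeks old, and the mice with metastases were 6 to 8 weeks old at injection. The paper describes random assignment of C57BL6/J mice to the untreated control or the metastasis group. The transcription inhibitors alpha-amanitin and actinomycin D were present during digestion of all tissues. The tissue and the sorting gate differed together between the groups, so an effect of the metastasis and a difference between 2 kinds of lung macrophage cannot be told apart. CD11B (Itgam) and CD11C (Itgax) are themselves subunits of complement receptors, and because the gate used them their levels are no finding here.

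Complement is a cascade of plasma proteins that tags particles for uptake, recruits leukocytes and can form pores in membranes. In the classical pathway C1q, assembled from A, B and C chains, recognises bound antibody or other ligands, and its associated proteases C1r and C1s cleave C4 and C2 to form a C3 convertase. In the alternative pathway C3b binds factor B, which factor D cleaves, and properdin stabilises the resulting convertase. Cleavage of C3 and C5 releases the anaphylatoxins C3a and C5a, which signal through the G protein-coupled receptors C3AR1 and C5AR1. Most circulating complement is made by the liver, whereas C1q and properdin are known as products of myeloid cells.

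All 9 genes were higher in MAMs, but by very different amounts. The C1q chains and C3ar1 were about 99 to 112 times as high, C4b was 72.0 times as high, Cfb and Cfp were about 8 times as high, and C3 and C5ar1 were less than 2 times as high. In edgeR's quasi-likelihood test 9 of 9 were called higher at an adjusted p under 0.05, where 28.9% of all tested genes were (56.2% in either direction), and 7 of 9 also had a fold change over 2, where 15.3% were, beside 15.1% lower by as much. Every MAM library lay above every RAM library for 9 of 9, compared with 23.7% of all tested genes. On the log2 scale 5 of the fold changes were over 6, a size found in 2.45% of tested genes, and the median over the 9 genes was 6.17, beside -0.02 over all tested genes. The genes were chosen with results of these data known, so these counts describe them and are no test of complement as a group. C4b passed the filter on low values only through MAMs (mean FPKM, fragments scaled by transcript length and library size, of 0.454 in RAMs), while the other 8 passed it in both groups. The exact two-sided permutation test of log2 CPM (counts scaled to library size with TMM factors) gave p = 0.00794 for each of the 9 genes, the smallest value that 5 against 5 libraries allow.

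The genes fell in several places of the genome, given here on GRCm38 from GENCODE M21, and all were on the minus strand. C1qb (chr4:136880129-136886187), C1qc (chr4:136889804-136893065) and C1qa (chr4:136895917-136898803), with 3 exons each, lay side by side within 18.7 kb. C4b (chr17:34728380-34743882, 41 exons) and Cfb (chr17:34856374-34862518, 18 exons) were separated by 112.5 kb of the same region, and C3 (chr17:57203970-57228136, 41 exons) lay elsewhere on that chromosome. Cfp was at chrX:20925454-20931555 with 9 exons, C3ar1 at chr6:122847138-122856161 and C5ar1 at chr7:16246743-16259540, both with 2 exons.

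Stretches of the promoters of C1qb, C1qc, C5ar1 and C3 are shown because the genes next to them moved by very different amounts, C1qb and C1qc strongly and C5ar1 and C3 weakly, and because they held the motif matches found. The table of RefSeq promoters on GRCm38.p6 held 6 of the 9 genes, and the promoters of C1qa, C4b and Cfb were not analysed here. Each stretch is the longest part, from 250 to 31 bases upstream of the RefSeq start, that is free of annotated exons. It is read 5′ to 3′ on the strand of the gene, and capitals mark a motif match. For C5ar1 the GENCODE gene given above begins upstream of the RefSeq start, so the printed stretch lies inside that gene, outside its exons. The GENCODE gene of C1qc also begins upstream of its RefSeq start, and the printed stretch of C1qc lies directly upstream of that gene. Motif positions are counted from the RefSeq start.
C1qb, chr4:136886231-136886450, minus strand: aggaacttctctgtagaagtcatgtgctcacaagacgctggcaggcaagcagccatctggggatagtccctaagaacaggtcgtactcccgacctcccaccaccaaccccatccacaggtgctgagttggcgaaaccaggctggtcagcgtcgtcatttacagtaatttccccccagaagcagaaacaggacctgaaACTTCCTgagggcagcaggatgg
C1qc, chr4:136893066-136893164, minus strand: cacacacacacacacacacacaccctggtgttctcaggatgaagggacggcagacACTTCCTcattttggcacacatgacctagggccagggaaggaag
C5ar1, chr7:16259369-16259512, minus strand: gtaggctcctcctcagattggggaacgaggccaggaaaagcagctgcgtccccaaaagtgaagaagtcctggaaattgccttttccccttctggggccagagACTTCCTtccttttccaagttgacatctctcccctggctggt
C3, chr17:57228167-57228386, minus strand: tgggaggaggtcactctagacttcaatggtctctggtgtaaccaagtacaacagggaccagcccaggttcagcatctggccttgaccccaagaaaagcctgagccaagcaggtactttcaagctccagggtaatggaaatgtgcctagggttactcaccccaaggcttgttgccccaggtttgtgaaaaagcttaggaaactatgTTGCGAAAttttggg
The search covered 250 bases before to 50 bases after each start, on both strands. AGGAAGT, a form of the site bound by PU.1 and other Ets factors, was found in 3 of 6 promoters and in 9.35% of 32851 promoters. It lay on the opposite strand, so that the gene's strand reads ACTTCCT, at position -53 of C1qb, -195 of C1qc and -72 and -190 of C5ar1, of which the last is outside the printed stretch. TTGCGNAA, a form of the C/EBP site, was found at position -45 of C3 and in 0.798% of all promoters. The core of the interferon response element (3.44% of all promoters) and the Ets-IRF composite element (2.72%), which shares the letters GGAA with the Ets motif, had no match in the 6 promoters. These matches describe letters in the windows, not binding.

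Depth was high in every library. Reads counted on genes ranged from 55391447 to 87523247 in MAM libraries and from 50746305 to 72150650 in RAM libraries, and no 2 libraries were identical. The sorting markers followed the gates: Itgam was at 5848 to 6844 CPM in MAMs and 59.5 to 72.2 CPM in RAMs, and Itgax at 145 to 240 CPM and 880 to 1110 CPM. Ptprc, which encodes CD45, was at 933 to 999 CPM in MAMs and 1038 to 1132 CPM in RAMs, Adgre1 (F4/80) at 236 to 339 and 214 to 251 CPM, and Mrc1 at 1191 to 1553 and 2544 to 2728 CPM. The LY6C genes were low throughout, Ly6c1 at 0.183 to 5.19 CPM and Ly6c2 at 2.81 to 15.4 CPM in MAMs, and both at no more than 0.300 CPM in RAMs. A list of 8 alveolar macrophage markers summed to 9620 to 12416 CPM in RAMs, led by Chil3 at 9151 CPM, and to 246 to 549 CPM in MAMs, led by Marco at 232 CPM. A list of 6 monocyte markers was called higher in MAMs for 6 of 6 genes, where 28.9% of all tested genes were. It summed to 727 to 1054 CPM in MAMs, led by Ccr2 at 444 CPM, and to 65.8 to 91.5 CPM in RAMs. In bulk samples such as these, fewer cells that carry a transcript and less transcript per cell cannot be told apart.

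**Figure D1:**
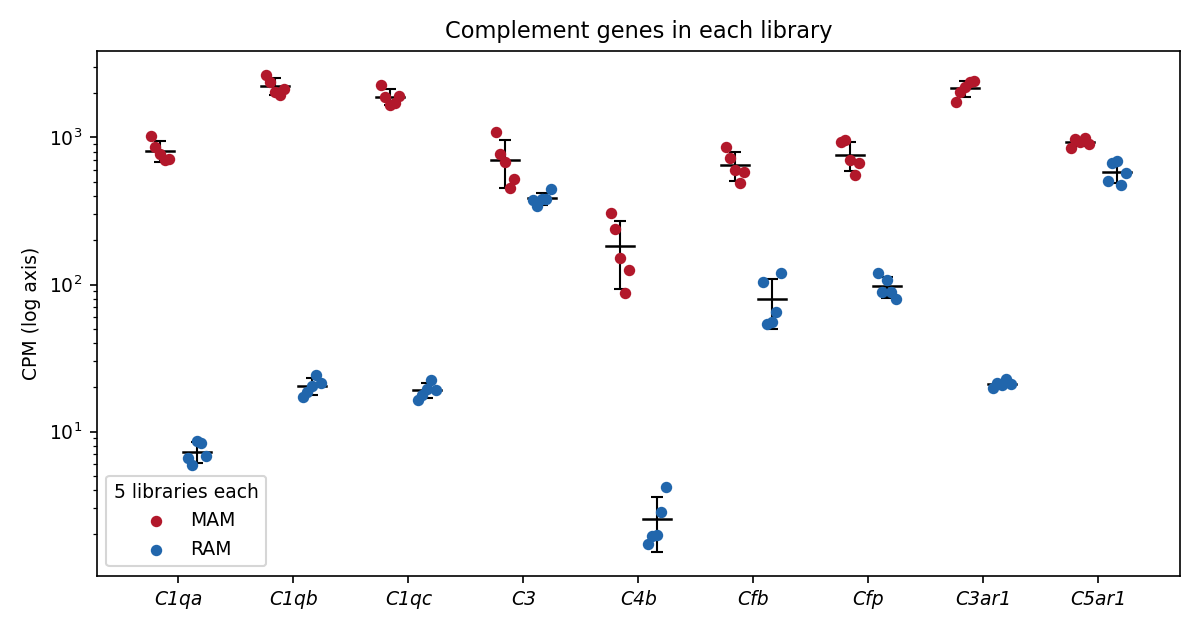
CPM (log axis) of the 9 complement genes in each of the 5 MAM libraries (red) and 5 RAM libraries (blue); horizontal lines are means and bars are the SD. The groups lie 74 to 81 times apart at their closest for the C1q chains and C3ar1, and almost meet for C3, where the lowest MAM library is at 455 CPM and the highest RAM library at 445 CPM.

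The 3 C1q chains, which together make the recognition molecule of the classical pathway, rose by nearly the same amount, with C1qa and C1qb the largest changes of the 9 genes and C1qc just below C3ar1. C1qa was at 1017, 862, 768, 699 and 716 CPM in MAM replicates 1 to 5, and at 6.58, 5.90, 8.63, 8.33 and 6.80 CPM in RAM replicates 1 to 5. C1qb was at 2676, 2376, 2037, 1953 and 2121 CPM in MAMs and at 17.1, 18.7, 20.4, 24.2 and 21.5 CPM in RAMs. C1qc was at 2283, 1889, 1673, 1726 and 1901 CPM in MAMs and at 16.4, 17.8, 19.6, 22.6 and 19.2 CPM in RAMs. For each chain even the lowest MAM library exceeded the highest RAM library more than 70 times, and MAM replicate 1 was the highest library. The mean of C1qa was 813 ± 131 CPM in MAMs and 7.25 ± 1.18 CPM in RAMs (SD, n = 5 each), a log2 fold change of 6.81 (SE 0.15, adjusted p = 2.6e-14). C1qb averaged 2233 ± 294 and 20.4 ± 2.73 CPM (SD, n = 5), a log2 fold change of 6.78 (SE 0.13, adjusted p = 5.6e-15), and C1qc 1894 ± 239 and 19.1 ± 2.33 CPM (SD, n = 5), a log2 fold change of 6.63 (SE 0.12, adjusted p = 4.2e-15). The C1q genes took 0.361 to 0.461% of all counts on genes in MAMs and 0.0038 to 0.0050% in RAMs.

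The low values in RAMs rested on many reads, 319 to 417 counts of C1qa, 987 to 1243 of C1qb and 902 to 1184 of C1qc per library. In the rest of this paragraph CPM is scaled to all counts on genes, tested or not, without TMM factors. On that scale the RAM level was 1.04% of the MAM level for C1qa, 1.06% for C1qb, 1.17% for C1qc and 1.14% for C3ar1. Of the 86 genes above 1000 CPM in MAMs, C1qb had the lowest such percentage, C3ar1 the fourth lowest and C1qc the sixth lowest. The median of those genes was 61.2%, and 10 of them lay under 1.5%. Itgam, whose protein the gate kept out of RAMs, was at 1.19%. Among the 1815 genes from 100 to 1000 CPM in MAMs, C1qa was the seventh lowest, the lowest was Ifi44 at 0.768%, and 52 lay under 1.5%. In the opposite direction Chil3 was the lowest of the 65 genes above 1000 CPM in RAMs, with a MAM level of 0.992% of the RAM level. Chil3 was the only one of those 65 genes under 1.5%. Whether the RAM reads of the C1q chains and C3ar1 came from RAMs was not tested, so their fold changes are those between the libraries as sequenced.

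**Figure D2:**
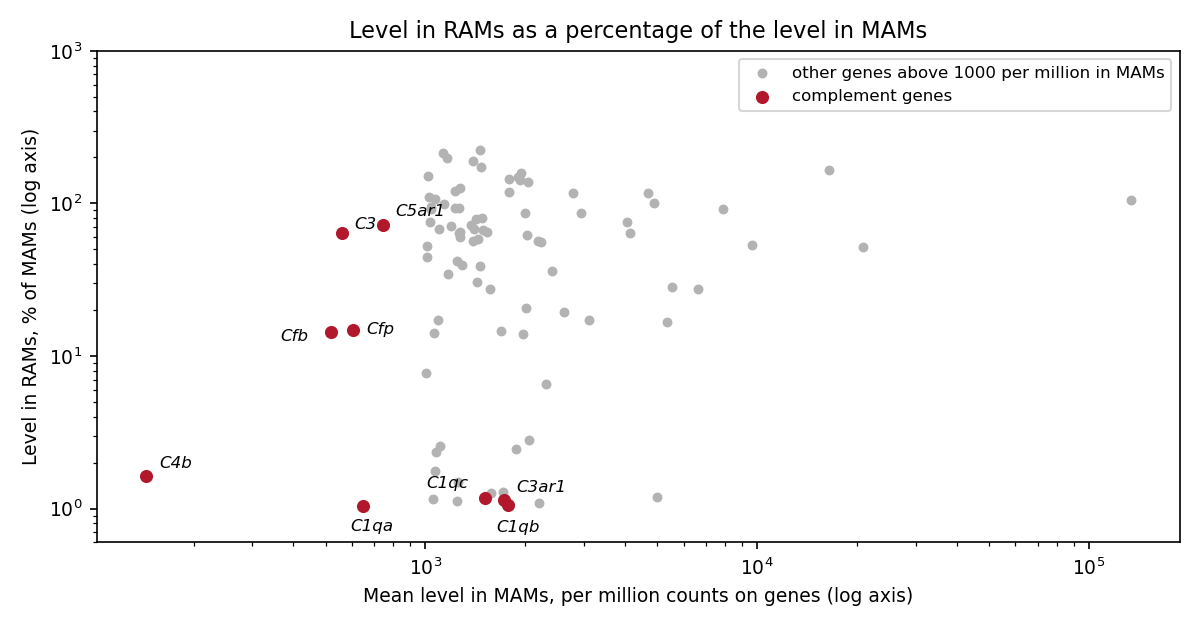
Mean level in RAMs as a percentage of the mean level in MAMs (vertical, log axis) against the mean level in MAMs in CPM scaled to counts on genes alone (horizontal, log axis), for the 9 complement genes (red, named) and the other genes above 1000 CPM in MAMs (grey). The C1q chains and C3ar1 lie at 1.04 to 1.17%, Cfb and Cfp at 14.3 and 14.8%, and C3 and C5ar1 at 63.7 and 72.5%.

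Because the chains are parts of 1 protein, their ratios within a library were compared, which needs no scaling between libraries. FPKM values were used here so that levels are per length. The C1qa to C1qb ratio was 0.342 to 0.380 in MAMs and 0.325 to 0.425 in RAMs, and its log2 differed by 0.03 (exact permutation test, adjusted over the 3 pairs p = 0.794). The C1qa to C1qc ratio was 0.348 to 0.424 in MAMs and 0.307 to 0.406 in RAMs, a log2 difference of 0.19 (exact permutation test, adjusted p = 0.119). The C1qb to C1qc ratio was 1.02 to 1.16 in MAMs and 0.93 to 1.02 in RAMs, a log2 difference of 0.16 (exact permutation test, adjusted p = 0.0476). The last call did not hold when MAM replicate 1, 2, 3 or 4 or RAM replicate 1, 2 or 4 was left out, where the difference was 0.14 to 0.18 (exact permutation test, adjusted p = 0.0952). With 1 library fewer the exact test has fewer possible values, so these lost calls are not read as dependence on those libraries. The mean log2 ratios of the 3 chains thus differed by at most 0.19 between the groups, while their levels differed by 6.63 to 6.81 on the same scale.

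C4b, the mouse gene of complement component C4 that follows C1 in the classical pathway, was also far higher in MAMs but varied most among libraries. It was at 309, 237, 152, 88.1 and 125 CPM in MAM replicates 1 to 5 and at 1.73, 1.95, 1.99, 2.86 and 4.22 CPM in RAM replicates 1 to 5. The groups did not overlap, with MAM replicate 1 highest and MAM replicate 4 lowest of the MAMs. The means were 182 ± 89.6 and 2.55 ± 1.03 CPM (SD, n = 5), a log2 fold change of 6.17 (SE 0.38, adjusted p = 2.0e-09). In libraries 1 to 3 of each group the log2 fold change of C4b was 6.94, and in libraries 4 and 5, which the table of FPKM lists apart, it was 4.91. This split, used again below, was chosen after seeing the data, so its values describe the libraries and are no separate test. Libraries 4 and 5 alone hold few samples, which limits what can be called in them. Its near copy C4a had 7 to 110 counts in MAMs and 7 to 105 in RAMs, which was at most 0.861% of the reads of both genes in MAMs and 4.86 to 42.9% in RAMs. Of the 100-base windows of the longest C4b transcript 16.5% also occur in C4a, and a read that lies wholly in such a window does not map uniquely by itself.

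C3, the component on which all pathways converge, was high in both groups and differed little. It was at 1094, 772, 681, 455 and 520 CPM in MAM replicates 1 to 5 and at 374, 345, 379, 382 and 445 CPM in RAM replicates 1 to 5. The groups did not overlap, but the lowest MAM library was only 1.02 times the highest RAM library. The means were 704 ± 252 and 385 ± 36.7 CPM (SD, n = 5), a log2 fold change of 0.87 (SE 0.18, adjusted p = 8.3e-04). The difference of C3 was not called in libraries 4 and 5 alone, with a log2 fold change of 0.24 (adjusted p = 0.196), and was 1.21 in libraries 1 to 3. Whether the 2 sets of libraries differed in this was not tested.

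Cfb, the protease of the alternative pathway convertase, and Cfp, its stabiliser properdin, rose by nearly the same amount. Cfb was at 855, 726, 599, 494 and 579 CPM in MAM replicates 1 to 5 and at 103, 54.0, 55.9, 64.9 and 120 CPM in RAM replicates 1 to 5. Among RAMs, replicates 1 and 5 stood above the other 3, and the lowest MAM library was still 4.11 times the highest RAM library. Its means were 651 ± 141 and 79.6 ± 30.1 CPM (SD, n = 5), a log2 fold change of 3.03 (SE 0.23, adjusted p = 2.4e-08). Cfp was at 925, 956, 706, 559 and 668 CPM in MAMs and at 119, 89.3, 108, 88.8 and 80.3 CPM in RAMs. The lowest MAM library was 4.69 times the highest RAM library. The means of Cfp were 763 ± 171 and 97.0 ± 15.9 CPM (SD, n = 5), a log2 fold change of 2.97 (SE 0.16, adjusted p = 3.1e-10). GENCODE places a readthrough gene, Gm20547, over C2 and Cfb, and 81.0% of the 100-base windows of the Cfb transcript occur in it too. Gm20547 was not analysed here, and reads of the 2 genes cannot be told apart in the value of Cfb.

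The 2 anaphylatoxin receptors behaved differently. C3ar1, the receptor of C3a, was at 1755, 2041, 2188, 2379 and 2413 CPM in MAM replicates 1 to 5 and at 19.8, 21.3, 20.9, 22.7 and 21.2 CPM in RAM replicates 1 to 5. Its coefficient of variation over the RAM libraries was 4.81%, the smallest spread of the 9 genes in either group. The means were 2156 ± 270 and 21.2 ± 1.02 CPM (SD, n = 5), a log2 fold change of 6.67 (SE 0.11, adjusted p = 6.9e-16). C5ar1, the main receptor of C5a, was at 854, 972, 937, 995 and 898 CPM in MAMs and at 505, 672, 695, 477 and 569 CPM in RAMs. The groups did not overlap, and the lowest MAM library was 1.23 times the highest RAM library. Its means were 931 ± 56.5 and 584 ± 97.4 CPM (SD, n = 5), a log2 fold change of 0.67 (SE 0.10, adjusted p = 3.9e-05). C5ar2, a second C5a receptor that does not couple to G proteins, was lower in MAMs, at 9.23, 9.22, 18.6, 36.8 and 23.7 CPM beside 48.4, 55.8, 53.8, 53.9 and 37.0 CPM in RAMs. The groups of C5ar2 nearly touched, and the log2 fold change was -1.35 (SE 0.32, adjusted p = 0.00204). It was -2.09 in libraries 1 to 3 and was not called in libraries 4 and 5, at -0.59 (adjusted p = 0.148).

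The order of the levels per length, in FPKM, turned over between the groups. In MAMs C1qb came first (2681 ± 354 FPKM, SD, n = 5), followed by C1qc (2467 ± 274) and C1qa (984 ± 154), which ranked 47, 48 and 84 among the 11571 genes tested. C1qb and C1qc overlapped between libraries, although C1qb was the higher in 5 of 5 libraries. Next came Cfp (535 ± 125 FPKM), C3ar1 (450 ± 56.4) and C5ar1 (407 ± 29.7), whose neighbours overlapped, then Cfb (249 ± 53.7) and C3 (139 ± 49.7), which also overlapped, and last C4b (29.5 ± 15.2). In RAMs C5ar1 came first (253 ± 43.2 FPKM, SD, n = 5, rank 194), followed by C3 (79.3 ± 8.10) and Cfp (65.3 ± 11.7), which overlapped. Cfb (27.8 ± 12.3 FPKM), C1qc (26.0 ± 3.31) and C1qb (25.3 ± 3.56) overlapped as neighbours, and C1qa (9.11 ± 1.41), C3ar1 (4.41 ± 0.211) and C4b (0.454 ± 0.121) closed the order. The 9 genes together took 0.772 to 0.907% of counts on genes in MAMs and 0.0998 to 0.120% in RAMs.

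MAM libraries differed among themselves in the complement components, and of the 9 genes C3ar1 alone was lower in each of replicates 1 to 3 than in replicates 4 and 5. Replicate 1 was the highest MAM library for 6 of 7 components, with Cfp highest in replicate 2, and the lowest for both receptors. Replicates 1, 2, 3, 5 and 4 followed each other from high to low for C1qa, C3, C4b and Cfb. The spread was largest for C4b, with a coefficient of variation of 49.2%, and C3, with 35.7%, and was 12.6 to 22.5% for the C1q chains, Cfb and Cfp, 12.5% for C3ar1 and 6.07% for C5ar1. Sums of marker genes moved over the same libraries. The alveolar macrophage list summed to 549, 490, 384, 246 and 289 CPM in MAM replicates 1 to 5, in the same order of libraries as C3 and C4b, and so did its leading gene Marco. The neutrophil list, of 7 genes led by Csf3r, summed to 124, 149, 217, 312 and 217 CPM, and the endothelial list, of 5 genes led by Kdr, to 21.7, 40.1, 58.7, 93.1 and 52.8 CPM, both lowest in replicate 1 and highest in replicate 4. The fibroblast list summed to 40.6, 3.49, 34.8, 4.11 and 11.1 CPM. The monocyte list summed to 1054, 942, 727, 750 and 847 CPM and the dendritic cell list to 13.2, 11.2, 3.58, 7.56 and 4.88 CPM, both highest in replicates 1 and 2 and lowest in replicate 3. The part of these lists in the differences among MAM libraries was not tested.

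**Figure D3:**
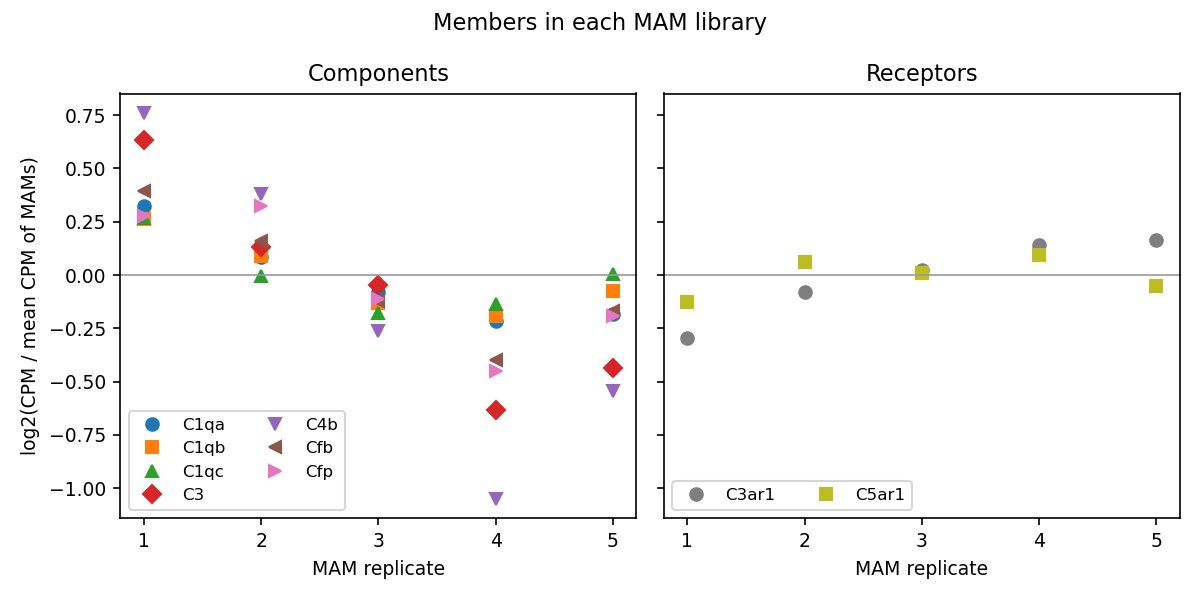
Level of each complement gene in each of the 5 MAM libraries, as log2 of its CPM over the mean CPM of the MAMs, for components (left) and receptors (right). Replicate 1 lies above the mean for all 7 components and below it for both receptors, and C4b has the widest range, from 0.76 in replicate 1 to -1.05 in replicate 4.

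Markers of other cell types were summed in the same way. The fibroblast list reached at most 40.6 CPM in MAMs and 6.05 CPM in RAMs, and the endothelial list 93.1 and 13.6 CPM. The list of epithelial and tumour cells reached 24.1 CPM in MAMs and 702 CPM in RAMs, led by Krt19, with 1 of 7 genes at 0 in all libraries, and the lung epithelium list 13.8 and 49.3 CPM. Dendritic cell markers summed to 3.58 to 13.2 CPM in MAMs and 19.3 to 29.3 CPM in RAMs, and lymphocyte markers, 6 of 7 in the files, to at most 17.8 and 19.3 CPM. The sums of neutrophil markers overlapped between the groups, at 124 to 312 CPM in MAMs and 139 to 202 CPM in RAMs. Of these 7 genes 3 were called higher in MAMs and 1 lower, beside 28.9% and 27.3% of all tested genes. The leading gene Csf3r averaged 146 CPM in MAMs and 68.4 CPM in RAMs. Of the erythrocyte markers 4 of 5 were at 0 in all libraries.

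Of 39 other complement genes, listed by role and apart from Itgam and Itgax, 13 were tested, 8 were called higher in MAMs and 1 lower, beside 28.9% and 27.3% of all tested genes, and 4 were not called. C2, Vsig4, Cd59a and Clu, 4 of the 8 called higher, passed the filter on low values through MAMs only, so the count is partly set by the filter and is not read against these percentages. Of the 7 genes that passed it in both groups, 4 were called higher, 1 lower and 2 were not called. The other 26 were below the filter, none with more than 331 counts in a library, and 8 of them were at 0 in all libraries. These 8 were Mbl1, Mbl2, Fcnb, Colec10, Colec11, C8a, C8b and Cfi, a count of 0 in a library allowing up to 3 counts.

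In the classical pathway 1 of 3 tested genes was called, C2, which with C4 forms the C3 convertase. It was at 6.38 ± 2.69 CPM in MAMs and 1.03 ± 0.502 CPM in RAMs (SD, n = 5), a log2 fold change of 2.63 (SE 0.48, adjusted p = 2.5e-04). The protease genes C1ra (-0.48, SE 0.27, adjusted p = 0.147) and C1rl (-0.48, SE 0.28, adjusted p = 0.169) were not called, and C1s1 was below the filter. Of the lectin pathway only Fcna, the recognition protein ficolin A, was tested. It was at 271, 253, 131, 91.3 and 111 CPM in MAMs and at 1.51 to 2.36 CPM in RAMs, a log2 fold change of 6.55 (SE 0.34, adjusted p = 2.7e-10), with the MAM libraries in the same order as for C4b. It was 7.04 in libraries 1 to 3 and 5.58 in libraries 4 and 5, and C2 was 2.26 and 3.30. The antisense gene Fcnaos overlaps exons of Fcna, and the files do not say whether strand was used in counting. Factor D (Cfd), the protease that activates factor B, had at most 69 counts in a library and was not tested. Of 7 genes of the terminal pathway, which forms the pore, only C8g passed the filter, and it was not called (-1.26, SE 0.92, adjusted p = 0.261). C5 itself, listed as Hc, was below the filter.

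Among the receptors the uptake receptor Vsig4, which binds C3b, was at 41.5, 13.7, 7.07, 9.07 and 1.98 CPM in MAMs and at 0.154 to 0.277 CPM in RAMs. Its log2 fold change was 6.23 (SE 0.73, adjusted p = 3.0e-06), and was 5.35 without MAM replicate 1, 6.97 in libraries 1 to 3 and 4.49 in libraries 4 and 5. Cd93, once described as a C1q receptor, was at 398, 585, 1097, 1372 and 939 CPM in MAMs and 55.8, 67.8, 78.3, 161 and 57.0 CPM in RAMs, a log2 fold change of 3.39 (SE 0.36, adjusted p = 9.7e-07). It is also an endothelial gene. Its MAM libraries were lowest in replicate 1 and highest in replicate 4, as were the endothelial list and the neutrophil list. The whole endothelial list summed to 21.7 to 93.1 CPM in MAMs, below the level of Cd93. The part of either list in the result was not tested. Itgb2, the beta chain shared by CD11B and CD11C and named after its values were seen, was at 2497 ± 330 and 1848 ± 145 CPM (SD, n = 5), a log2 fold change of 0.43 (SE 0.09, adjusted p = 6.3e-04), and was not called in libraries 4 and 5 alone (0.22, adjusted p = 0.177).

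Of 4 tested regulators 3 were called higher, beside 28.9% of all tested genes, and the calls of Clu and Cr1l did not hold throughout. Cd59a, Clu and Cd55 passed the filter on low values through MAMs only, so this count is not read against that percentage. Cd59a, an inhibitor of pore formation, was at 3.22 ± 1.11 and 0.176 ± 0.128 CPM (SD, n = 5), a log2 fold change of 4.15 (SE 0.73, adjusted p = 1.8e-04), and 3.65 in libraries 1 to 3 and 5.22 in libraries 4 and 5. Clusterin (Clu) was low and overlapped between the groups, at 0.142 to 4.31 CPM in MAMs and 0.0213 to 0.766 CPM in RAMs. Its log2 fold change of 2.48 (SE 0.95, adjusted p = 0.037) was not called under 11 of 20 alternatives, with adjusted p up to 0.195, among them leaving out MAM replicate 3 or 5 or RAM replicate 1, 2 or 5. Cr1l, the membrane regulator Crry and named after its values were seen, was at 85.3 ± 4.69 and 70.5 ± 6.02 CPM (SD, n = 5), a log2 fold change of 0.27 (SE 0.09, adjusted p = 0.0163), and was not called under 3 of 20 alternatives, upper-quartile scaling (adjusted p = 0.313), libraries 1 to 3 (adjusted p = 0.209) and libraries 4 and 5 (adjusted p = 0.0832). Cd55, which speeds the decay of convertases, was not called (1.13, SE 0.60, adjusted p = 0.124).

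**Figure D4:**
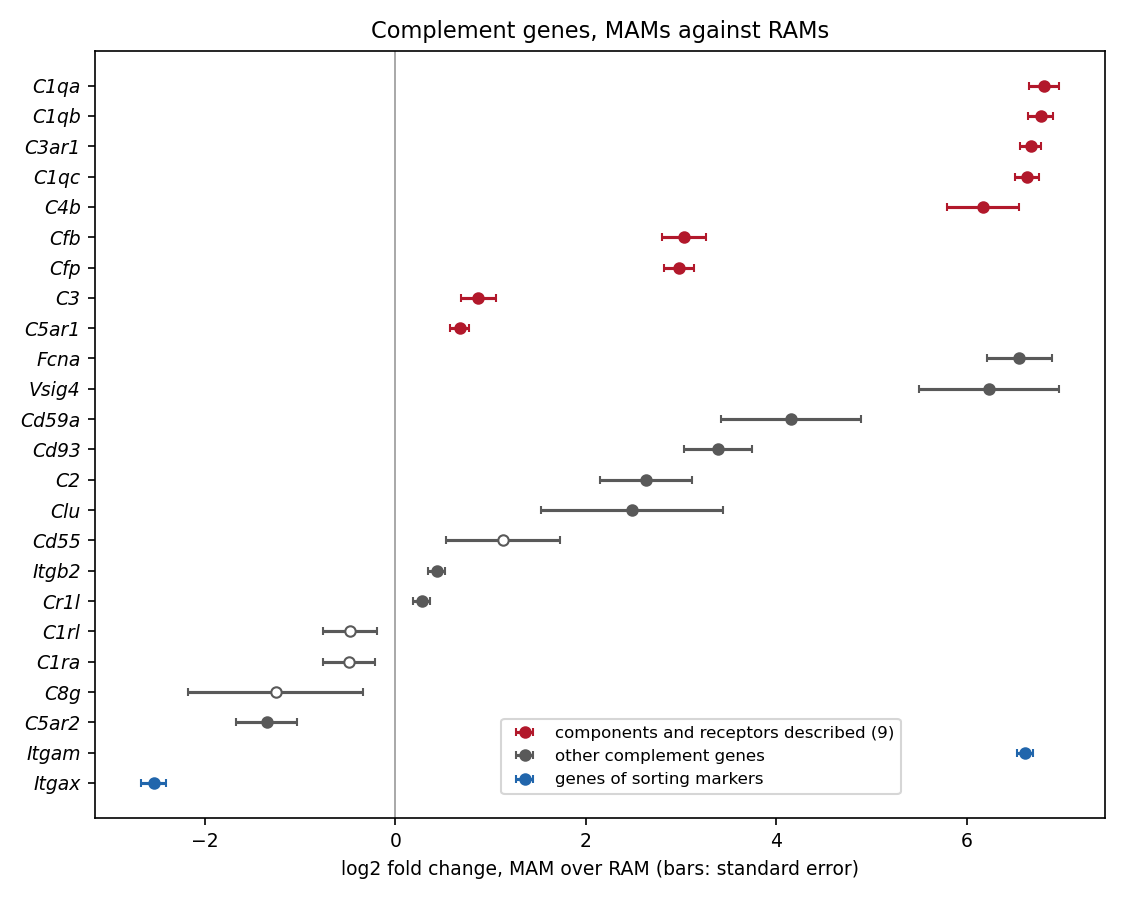
Log2 fold change of MAMs over RAMs with its standard error for the 9 complement genes described (red), the 13 other complement genes tested (grey) and the genes of the sorting markers CD11B and CD11C (blue); open circles were not called. The C1q chains, C3ar1, C4b, Fcna and Vsig4 lie above 6, C3 and C5ar1 below 1, and C5ar2 is the only called complement gene on the left apart from Itgax.

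The genes most like each complement gene were sought by the root mean square difference of log2 CPM, centred on its mean over the 10 libraries. For the mean of the C1q chains these were Rsad2 (0.073), Thbs1 (0.13) and Itgam (0.14), and for C3ar1 they were Ccl7 (0.093), Marcks (0.097) and Adam8 (0.13). C4b was nearest to Acod1 (0.27), Fabp7 (0.28) and Selp (0.29). Cfb was nearest to Stk39 (0.24), Trim30d (0.24) and Tspo (0.29), and Cfp to Znfx1 (0.19), Dhx58 (0.22) and Timp1 (0.22). C3 was nearest to Dpy19l1 (0.17), Hibadh (0.18) and Agpat4 (0.18), and C5ar1 to Egln1 (0.097), Phf21a (0.10) and Pno1 (0.12). No other complement gene of the lists was among the 3 nearest to any of them apart from Itgam. The measure is a description over 10 libraries of 2 groups and is set mainly by the size of the group difference.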

How the data were processed

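RNA of sorted macrophages, 5 MAM and 5 RAM libraries grouped by the sample labels, was measured with the Ovation RNA-Seq System V2 and paired reads of 100 bases. The authors aligned reads with TopHat2 2.0.13 to GRCm38, and deposited counts of uniquely mapped reads per gene (HTSeq 0.6.1, UCSC RefGene models, strand setting not given in the sources used here) and FPKM values (Cufflinks 2.2.1). Lines naming no gene were left out, and they took 54.6 to 58.3% of each MAM library and 62.2 to 64.1% of each RAM library. A gene entered the test if its FPKM averaged 1 or more in MAMs or in RAMs and it had a count above 0; tests were run with edgeR 4.0.16 (quasi-likelihood test, TMM scaling, Benjamini-Hochberg adjustment, R 4.3.3), after a check on simulated data. CPM divides by the counts on the tested genes times the TMM factor, with no pseudocount, except where scaling to all counts on genes is stated. The TMM factors were 0.8975 to 0.9428 in MAM libraries and 1.066 to 1.095 in RAM libraries. Compared with scaling without them, they raise MAM levels relative to RAM levels. P-values and standard errors take in the spread between these samples. The floor of 3 counts covers counting error only, as reads carried no molecular identifiers and copies of 1 molecule are not independent. DESeq2 1.42.0, limma 3.58.1 on log2(FPKM + 1) and log2(FPKM + 0.1), other scalings and filters, the replicate block and leaving out each library were alternatives. Single values and ratios were tested by exact permutation.

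The 9 genes and the lists were chosen with earlier results of these data known. Genes were named if among the 9, if they were up to 4 called genes per role with the largest fold change over 2, if among the 3 nearest profiles, as sorting markers, or as the most abundant gene of a cell type list; others are said to be named after their values were seen, which also holds for Hc, C1s1, Cfd, C4a, Ifi44, the genes at 0 and the genes not called. Some complement genes are not reported here and are in none of the counts of other complement genes.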

Additional observations from a re-analysis of the deposited data

Results flagged for a closer look

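The levels of the tested complement genes and the ratios of the C1q chains were examined in each group, 54 groups of 5 libraries in all, for a library far from the others of its group, which chance gives in about 1 of 20 groups. None of the 9 complement genes had such a library, and 3 other values did. Itgax was at 240.02 CPM in MAM replicate 1, beside 145 to 163 CPM in the other 4 MAM libraries. Itgb2 was at 2098.4 CPM in RAM replicate 5, beside 1740.1 to 1826 CPM in the others, and Cd93 at 161.23 CPM in RAM replicate 4, beside 55.8 to 78.3 CPM.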

How the results depend on the processing

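The log2 fold changes of C1qa (6.55 to 6.97), C1qb (6.48 to 6.97), C1qc (6.44 to 6.76), C4b (4.24 on log2(FPKM + 1) to 6.94), Cfb (2.54 to 3.35), Cfp (2.81 to 3.07), C3ar1 (6.37 to 6.77) and C5ar1 (0.51 to 0.85) kept direction and call under every alternative run. C3 ranged from 0.66 to 0.99 when 1 library was left out, and was 0.24 and not called with libraries 4 and 5 of each group alone, a split chosen after seeing the data. Depth limits the low values of Vsig4, Cd59a and Clu, and the cause of the changes listed here was not tested.

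Genes called higher numbered 2277 to 3896 and lower 1900 to 4072 over the alternatives, the lowest with libraries 4 and 5 alone (1900 lower), where fewer samples entered. Upper-quartile scaling moved the median of all genes by -0.16 and the share of calls that were higher from 51.4% to 40.3% (2745 higher, 4072 lower), and the 9 genes were still called. Other complement genes called lower numbered 2 without a filter (C7 added), and 2 with limma on log2(FPKM + 1) and on log2(FPKM + 0.1) (C8g added). They numbered 1 to 2 when 1 library was left out (C8g without MAM replicate 3, C1rl without MAM replicate 5). With libraries 4 and 5 alone they numbered 0, and 5 rather than 8 were called higher. Without a filter 9 were called higher, with Masp1 and C6 added and Clu lost. Masp1 and C6 had no counts in any RAM library and C7 none in any MAM library, so the sizes of these changes are not estimated. These genes were named after their values were seen. Leaving out 1 library gave log2 differences of 0.14 to 0.18 for the C1qb to C1qc ratio and 0.14 to 0.24 for C1qa to C1qc, which passed the threshold without MAM replicate 5 or RAM replicate 3 (exact permutation test, adjusted p = 0.0476).

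Same-numbered MAM and RAM libraries did not deviate together (correlations -0.037 to 0.029), so the numbers were not used to pair them. Whether same-numbered libraries shared a batch was not tested. With the replicate block 3205 genes were higher and 3100 lower, all 9 complement genes were called, C3 at 0.81, and 7 other complement genes were higher and 1 lower, Clu being lost.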
